A study of Spinacia oleracea with 12 samples.

Results

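The spinach genes Spo06441, Spo19759 and Spo25084, described in the study as putative oxalate decarboxylase (OXDC)-like genes, were followed across all 12 RNA-Seq libraries. They were taken by their IDs, and all 3 were found among the 25495 genes of the deposited table. The plants were 6 weeks old and belonged either to PI175311, an accession labelled high in oxalate, or to Bloomsdale, a cultivar labelled low in oxalate. Leaf laminae and roots were sequenced in 3 libraries per genotype. All plants were untreated and were grown in containers in a growth chamber, and the labels state that 3 independent plants were used for RNA extraction. The paper describes a nitrogen-free nutrient solution while the sample labels describe a feed with added nitrate, given alike to both genotypes. Each genotype is a single accession or cultivar, so a difference between them is a difference between these lines and not between oxalate classes. Whether the leaf and root with the same number came from the same plant is not stated in the sources used here.

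Oxalate decarboxylase is an enzyme of fungi and bacteria that splits oxalate into formate and carbon dioxide. The characterised enzymes depend on manganese and belong to the cupins, the superfamily of barrel-shaped proteins that also holds the germins and seed storage globulins of plants. Plants are known to break oxalate down by other routes, among them oxalate oxidase, which releases carbon dioxide and hydrogen peroxide, and a CoA-dependent route that begins with oxalyl-CoA synthetase (AAE3). The name of the spinach genes rests on sequence resemblance, which the paper calls poor when set against fungal OXDC genes. The paper asks for functional tests of the spinach enzymes and states that OXDC activity is not yet shown in plants. No enzyme activity was measured in these samples. The deposited table carried gene IDs with no symbols, sequences or coordinates, so the position and exon structure of the genes were not analysed here.

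The deposited values were FPKM, the number of sequenced fragments of a gene divided by the length of the gene and by the library total. The values carried enough digits to solve for the whole numbers of fragments behind them, and the library totals recovered in this way ranged from 18451262 to 25245734. The lengths that the FPKM of Spo06441, Spo19759 and Spo25084 had been divided by were 1512, 504 and 760 bases. Pearson's r of log2(FPKM + 1) across genes was 0.938 to 0.989 between libraries of the same group, 0.890 to 0.942 between the genotypes within a tissue and 0.664 to 0.770 between leaf and root. Every library was thus closest to those of its own tissue, which is the only check of the tissue labels made, since marker genes could not be named from the IDs. How the authors treated reads that match more than 1 of the OXDC-like genes is not given in the sources used here.

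Spo19759 was the most abundant OXDC-like gene in all 6 leaf libraries, and Spo25084 was the most abundant in all 6 root libraries. Spo06441 came last in all 12 libraries, below 1 FPKM throughout. Spo19759 was higher in leaf than in root in both genotypes, and Spo25084 was lower in leaf than in root in both, although the Bloomsdale difference of Spo25084 depended on the scaling of the libraries. Neither tested gene passed the main test of the genotype difference in leaf or in root, unpaired on the 6 libraries of the tissue. Spo19759 in root was lower in all 3 PI175311 libraries than in any Bloomsdale library. Of all tested genes, 41.1% had root ranges that did not overlap. The log2 difference of Spo19759 in root was -1.09 (limma adjusted p = 0.0591), and its call turned on the fit. It passed unpaired with all 12 libraries in 1 fit (limma adjusted p = 0.0241). Paired by replicate number (replicate block), a pairing hinted at only by these data, it also passed (limma adjusted p = 0.0208). With median-of-ratios scaling it did not (limma adjusted p = 0.108), and leaving out 1 library gave a limma adjusted p of 0.0429 to 0.215.

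**Figure D1:**
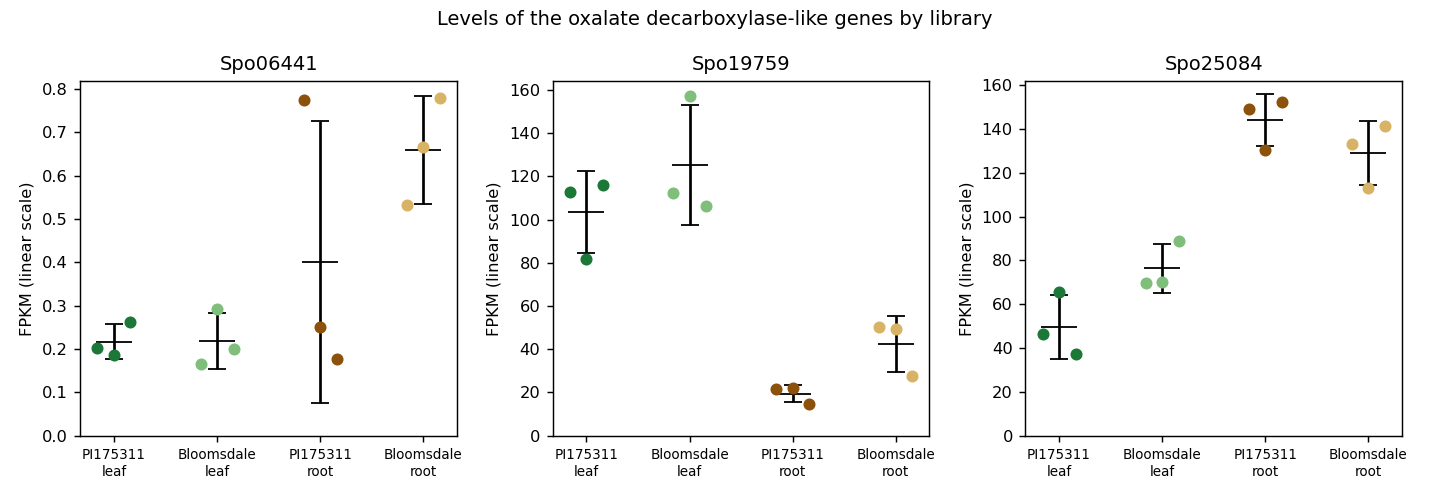
FPKM of Spo06441, Spo19759 and Spo25084 (1 panel each, linear scales that start at 0 and differ between panels) in the libraries of the 4 groups. Points are single libraries in the order of their replicate number, and bars show the mean and SD (n = 3). Spo19759 lies between 81.7 and 157 FPKM in leaf and between 14.8 and 50.5 in root, and Spo25084 between 37.3 and 89.1 in leaf and between 113 and 152 in root.

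The leaf-preferring gene was Spo19759. In PI175311 leaves its level was 113, 81.7 and 116 FPKM in replicates 1 to 3, with a mean of 103 ± 18.9 (SD, n = 3). In Bloomsdale leaves it was 112, 157 and 106 FPKM, with a mean of 125 ± 27.7 (SD, n = 3). These placed Spo19759 between rank 628 and rank 1026 of the table in the leaf libraries, with 875 to 1617 fragments in each. The leaf ranges of the genotypes overlapped, and only Bloomsdale leaf 2 stood above all PI175311 leaves.

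In roots Spo19759 was lower, between rank 2571 and rank 6913. The PI175311 roots had 21.5, 21.9 and 14.8 FPKM, with a mean of 19.4 ± 4.01 (SD, n = 3) from 167 to 269 fragments. The Bloomsdale roots had 50.5, 49.3 and 27.6 FPKM, with a mean of 42.5 ± 12.9 (SD, n = 3) from 342 to 569 fragments. The 2 root ranges did not overlap, but Bloomsdale root 3 lay closer to the PI175311 roots than to the other Bloomsdale roots. The order of the group means was Bloomsdale leaf, PI175311 leaf, Bloomsdale root and PI175311 root, and only the leaf groups, whose means differed 1.21-fold, overlapped with their neighbour in that order.

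Spo25084 had the opposite preference. Its level was 46.3, 65.7 and 37.3 FPKM in the PI175311 leaves, with a mean of 49.8 ± 14.5 (SD, n = 3). In the Bloomsdale leaves it was 69.7, 70.2 and 89.1 FPKM, with a mean of 76.3 ± 11.0 (SD, n = 3). All 3 PI175311 leaves were below all 3 Bloomsdale leaves, with PI175311 leaf 2 the nearest to them.

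The root libraries held Spo25084 at a narrower range of levels. The PI175311 roots had 149, 130 and 152 FPKM, with a mean of 144 ± 11.9 (SD, n = 3). The Bloomsdale roots had 133, 113 and 141 FPKM, with a mean of 129 ± 14.7 (SD, n = 3). These ranges overlapped, and replicate 2 was the lowest in both genotypes. The coefficient of variation of Spo25084 was 8.24% and 11.4% in the PI175311 and Bloomsdale roots, against 29.2% and 14.4% in the leaves. The order of the group means was PI175311 root, Bloomsdale root, Bloomsdale leaf and PI175311 leaf, and only the root groups, whose means differed 1.12-fold, overlapped with their neighbour.

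Spo06441 was near the limit of what these libraries could resolve. It was read by 7, 6 and 10 fragments in the PI175311 leaves (0.203, 0.187 and 0.262 FPKM) and by 6, 9 and 7 fragments in the Bloomsdale leaves (0.166, 0.291 and 0.200 FPKM). In the Bloomsdale roots it had 18, 22 and 29 fragments (0.532, 0.665 and 0.780 FPKM). In the PI175311 roots it had 29, 7 and 6 fragments (0.774, 0.251 and 0.177 FPKM). PI175311 root 1 was thus at the level of the Bloomsdale roots, while PI175311 roots 2 and 3 were at the level of the leaves.

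The exact 95% Poisson interval of the 29 fragments in PI175311 root 1 was 19.4 to 41.6, above the upper ends of 14.4 and 13.1 for the 7 and 6 fragments in roots 2 and 3. The spread among the PI175311 roots was therefore larger than counting error, which is all that these intervals cover. Summed over the 3 libraries of a group, Spo06441 had 23 fragments (interval 14.6 to 34.5) in PI175311 leaves, 22 (13.8 to 33.3) in Bloomsdale leaves, 42 (30.3 to 56.8) in PI175311 roots and 69 (53.7 to 87.3) in Bloomsdale roots. The order of the mean FPKM was Bloomsdale root, PI175311 root, Bloomsdale leaf and PI175311 leaf, and each group overlapped with its neighbour in that order. The Bloomsdale roots were above all leaf libraries of both genotypes, with a mean 3.01-fold that of the Bloomsdale leaves.

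**Figure D2:**
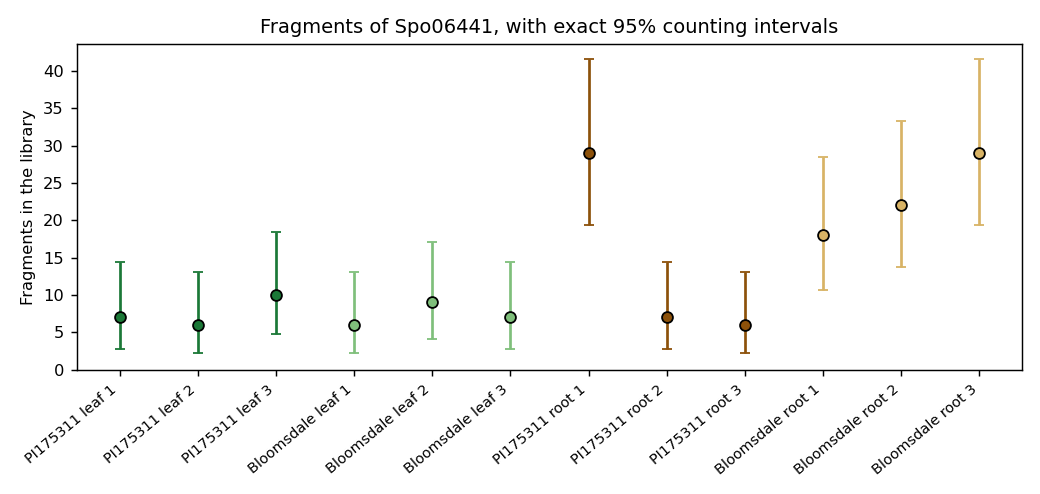
Fragments of Spo06441 in each library (linear scale) with exact 95% Poisson intervals, which cover counting error only. PI175311 root 1 and the 3 Bloomsdale roots hold 18 to 29 fragments, and the other 8 libraries hold 6 to 10.

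Which gene dominated was then read from the share of each in the summed FPKM of the 3 OXDC-like genes. In leaves, Spo19759 made up 67.2 ± 10.5% (SD, n = 3) of this sum in PI175311 and 61.7 ± 7.33% (SD, n = 3) in Bloomsdale. In roots its share was 11.9 ± 2.82% (SD, n = 3) in PI175311 and 24.7 ± 7.42% (SD, n = 3) in Bloomsdale. Nearly all of the remainder was Spo25084, since the share of Spo06441 was at most 0.459% in any library.

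In single libraries the share of Spo25084 ran from 24.3% to 45.6% in leaf and from 69.3% to 91.1% in root. The ratio of Spo19759 to Spo25084 in leaves was 2.26 ± 0.944 (SD, n = 3) in PI175311 and 1.68 ± 0.525 (SD, n = 3) in Bloomsdale. In roots the ratio of Spo25084 to Spo19759 was 7.72 ± 2.28 (SD, n = 3) in PI175311 and 3.35 ± 1.55 (SD, n = 3) in Bloomsdale. The leaf lead of Spo19759 was narrow in Bloomsdale leaf 3 and PI175311 leaf 2, where it held 54.3% and 55.4% of the sum.

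This order in leaf holds per length and is not one of fragment numbers. Spo19759 is the shortest of the genes, and it had more fragments than Spo25084 in 4 of 6 leaf libraries. In PI175311 leaf 2 it had 875 fragments against 1061 of Spo25084, and in Bloomsdale leaf 3 it had 1240 against 1568. In root Spo25084 led by both measures in all 6 libraries.

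The summed level, in FPKM as deposited, varied less between groups than its make-up did. In PI175311 it was 153 ± 5.93 FPKM (SD, n = 3) in leaf and 164 ± 9.94 (SD, n = 3) in root, and in Bloomsdale it was 202 ± 23.3 FPKM (SD, n = 3) in leaf and 172 ± 10.8 (SD, n = 3) in root. The highest group mean of this sum was that of Bloomsdale leaves, where both abundant genes had their higher leaf mean.

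**Figure D3:**
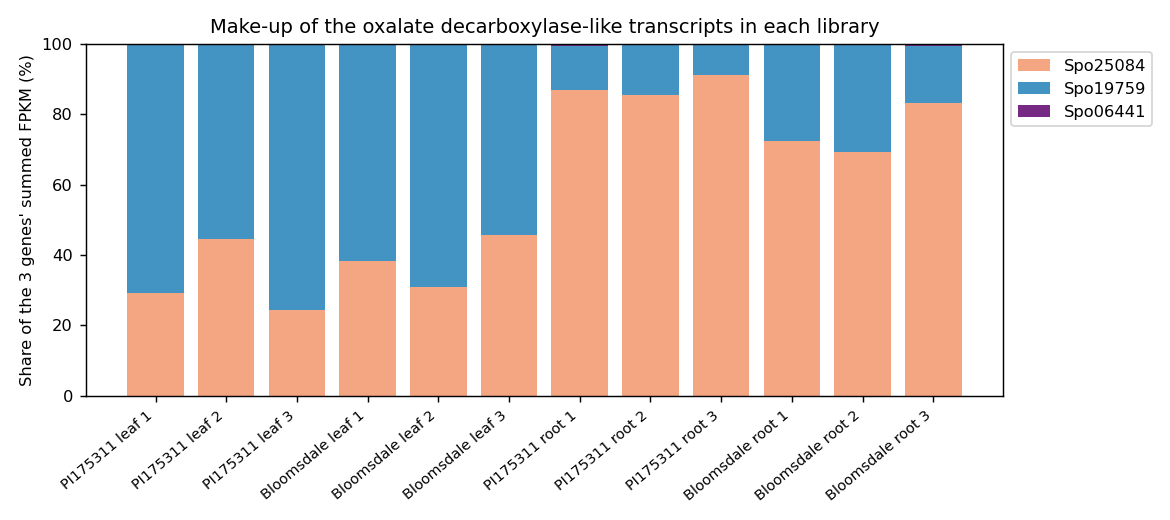
Share of Spo25084, Spo19759 and Spo06441 in the summed FPKM of the 3 genes (%, stacked to 100) in each of the 12 libraries. Spo19759 holds 54.3% to 75.5% of the sum in leaf and Spo25084 holds 69.3% to 91.1% in root, and the Spo06441 layer is too thin to be seen in most libraries.

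Leaf was compared with root in each genotype, to see whether the tissue preference was held in both lines. The test was limma on log2(FPKM + 0.1), with all 12 libraries in 1 fit and Benjamini-Hochberg adjustment over every gene tested. It covered the 19549 genes that reached 1 FPKM in 3 or more libraries, among them Spo19759 and Spo25084 but not Spo06441. A difference in bulk tissue does not separate fewer cells of a type from less RNA in each cell.

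Spo19759 was higher in leaf in PI175311, by 2.41 on the log2 scale (SE 0.27, 5.32-fold, limma adjusted p = 2.69e-05), with all 3 leaves above all 3 roots. In Bloomsdale it was higher in leaf by 1.59 (SE 0.27, 3.00-fold, limma adjusted p = 0.000484), again with no overlap. Spo25084 fell by 1.57 from root to leaf in PI175311 (SE 0.21, 2.96-fold lower, limma adjusted p = 9.22e-05), with all leaves below all roots. In Bloomsdale it was lower in leaf, with a log2 difference of -0.76 (SE 0.21, 1.69-fold, limma adjusted p = 0.00832), and here too no leaf reached a root.

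Most genes of the table also passed the comparison of leaf with root. The test called 63.4% of genes in PI175311, 15.9% as higher in leaf and 47.5% as lower, and 64.6% in Bloomsdale, 14.6% as higher and 50.0% as lower. The ranges of leaf and root did not overlap for 67.5% of tested genes in PI175311 and 72.9% in Bloomsdale. A call as lower in leaf was therefore common, and that of Spo25084 is near this background, while a call as higher in leaf, as for Spo19759, was less frequent.

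The median log2 difference over all tested genes was -0.64 in PI175311 and -0.70 in Bloomsdale, so FPKM of a typical gene was lower in leaf. Against this shift, the Bloomsdale difference of Spo25084 stood at percentile 47.1 of all tested genes and its PI175311 difference at percentile 20.9. The differences of Spo19759 stood at percentiles 88.9 and 91.8. When libraries were rescaled by median-of-ratios factors, which set the typical gene equal between libraries, Spo25084 in Bloomsdale was at -0.11 (limma adjusted p = 0.726) and its leaf and root ranges overlapped. With the same factors, Spo25084 in PI175311 stayed lower in leaf at -1.01 (limma adjusted p = 0.00419). Spo19759 stayed higher, at 2.97 in PI175311 (limma adjusted p = 3.11e-06) and 2.23 in Bloomsdale (limma adjusted p = 2.28e-05).

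Spo06441 was not tested by the main fit, being under 1 FPKM everywhere. The difference between its leaf and root group means of log2(FPKM + 0.1) was -0.48 in PI175311 and -1.26 in Bloomsdale. Without the filter on low values, the Bloomsdale difference passed limma's threshold (adjusted p = 0.0272) and the PI175311 difference did not (adjusted p = 0.371). With limma-voom on the recovered fragments and no filter, the values were -1.55 in Bloomsdale (adjusted p = 0.0250) and -0.60 in PI175311 (adjusted p = 0.386). Without PI175311 root 1 the PI175311 difference was 0.02, so that value rested on a single library.

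**Figure D4:**
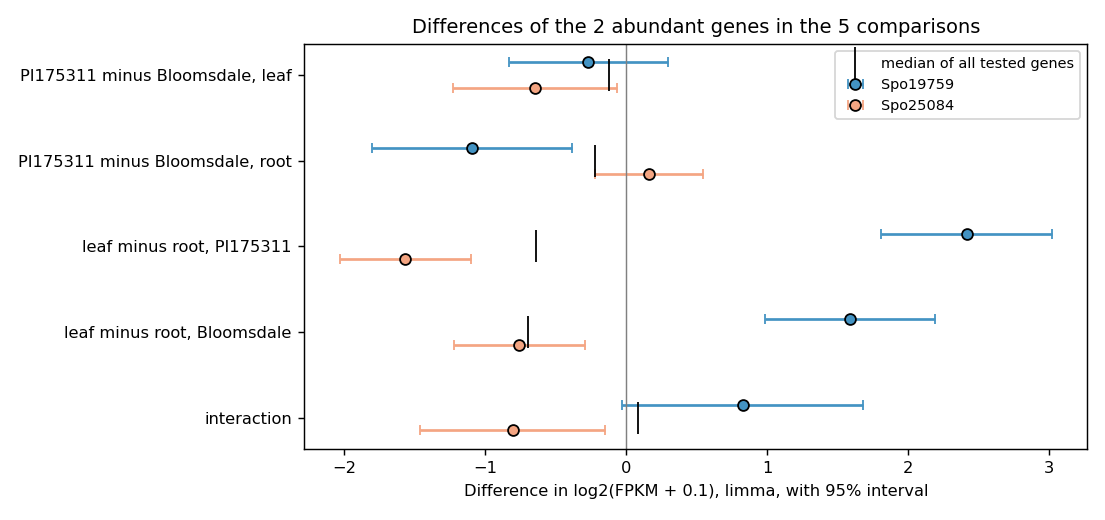
Log2 differences of Spo19759 and Spo25084 in the 5 comparisons, with 95% intervals from limma, and the median over all tested genes in each (vertical ticks). The leaf-minus-root differences of Spo19759 lie at 2.41 and 1.59 and those of Spo25084 at -1.57 and -0.76, the last of them beside the median of -0.70.

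Genotypes were compared within each tissue, which asks whether the OXDC-like genes differ between the high-oxalate and the low-oxalate line. Log2 differences are PI175311 minus Bloomsdale, from limma on the 6 libraries of the tissue. In leaf, 10.1% of the 16764 tested genes were called and 33.2% had ranges that did not overlap. In root, 12.6% of 18197 genes were called and 41.1% had ranges that did not overlap. Of the OXDC-like genes tested, limma called 0 of 2 in either tissue, and limma-voom on the recovered fragments also called 0 of 2. At an unadjusted p under 0.05, 1 of the 2 passed in leaf (Spo25084) and 1 in root (Spo19759), where 27.2% of all tested genes passed in leaf and 33.3% in root.

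In leaf, Spo19759 differed by -0.27 (SE 0.25, limma adjusted p = 0.528), with an interval of -0.83 to 0.29. This value shrank to -0.11 without PI175311 leaf 2, to -0.09 without Bloomsdale leaf 2 and to -0.15 with median-of-ratios scaling. Spo25084 differed by -0.65 in leaf (SE 0.25, limma adjusted p = 0.144), with an interval of -1.23 to -0.07 and an unadjusted p of 0.0332. Its PI175311 leaves were all below the Bloomsdale leaves, a separation that 33.2% of tested genes also had in one direction or the other, and the groups overlapped after median-of-ratios scaling, with a difference of -0.52 (limma adjusted p = 0.227). Spo06441 differed by 0.0032 between the leaf group means.

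In root, Spo19759 differed by -1.09 (SE 0.29, 2.14-fold), with an interval of -1.81 to -0.38, and did not pass the threshold (limma unadjusted p = 0.00911, adjusted p = 0.0591). This value lay close to the threshold and its call turned on the fit. With replicate number as a block the adjusted p was 0.0208, and with all 12 libraries in 1 fit it was 0.0241. Without Bloomsdale root 3, the Bloomsdale root with the least Spo19759, the difference was -1.38 (limma adjusted p = 0.0429). With median-of-ratios scaling it was -0.86 (limma adjusted p = 0.108). The direction was the same in all of these.

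Spo25084 differed in root by 0.16 (SE 0.16, limma adjusted p = 0.523), with an interval of -0.22 to 0.54, and by 0.07 without Bloomsdale root 2. After median-of-ratios scaling the difference was 0.40 (limma adjusted p = 0.198), and all 3 PI175311 roots were then above the Bloomsdale roots. The share of all tested genes separated in this way was 41.1% before scaling, in either direction, and was not computed after it. Spo06441 differed by -0.77 between the root group means, and by -1.27 without PI175311 root 1, with no call without the filter (limma adjusted p = 0.389).

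The interaction of genotype and tissue tests whether the leaf-minus-root difference is larger in one line. Spo19759 had a larger leaf preference in PI175311 by 0.83 (SE 0.39, limma adjusted p = 0.323), with an interval of -0.03 to 1.68. The difference of Spo25084 was -0.81 (SE 0.30, limma adjusted p = 0.201), with an interval of -1.46 to -0.15 and an unadjusted p of 0.0203. Both abundant genes thus had the larger tissue difference in PI175311, in opposite directions, and neither passed the test, which called 2.26% of the 19549 genes. Spo06441 had a value of 0.78, with no test in the main fit.

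Whether the OXDC-like genes moved together was examined within the 6 leaf and within the 6 root libraries, since leaf and root form separate clusters. Exact permutation tests over 6 relations were 2-sided, with Benjamini-Hochberg adjustment, and 0 of 6 passed, also at an unadjusted p under 0.05. Spo19759 and Spo25084 had Pearson's r = -0.765 in root (n = 6, exact p = 0.0764, adjusted p = 0.288) and Spearman's rho = -0.714 (exact p = 0.136). Without the 2 libraries farthest from the median of Spo19759, r was -0.527. In leaf the same pair had r = -0.0426 (n = 6, exact p = 0.938) and rho = -0.200 (exact p = 0.714). Without the 2 farthest leaf libraries, Bloomsdale leaf 2 and PI175311 leaf 2, r was -0.913 over the 4 left, so the leaf value rested on those 2.

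The leaf r of this pair also changed when the genotypes were set to a common mean. The deviations of Spo19759 and Spo25084 from their genotype means had r = -0.765 in leaf and -0.668 in root, with an adjusted permutation p of 0.197 in each tissue. The permutations exchanged values across genotypes, which such deviations do not strictly allow, so this p is approximate. In PI175311 leaves the library with the least Spo19759, replicate 2, had the most Spo25084, and replicate 3 the reverse. Among the Bloomsdale leaves replicate 3 had the least Spo19759 and the most Spo25084.

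Spo06441 and Spo19759 had r = 0.717 in leaf (n = 6, exact p = 0.0958, adjusted p = 0.288) with rho = 0.829 (exact p = 0.0583), but r fell to 0.0142 without the 2 libraries farthest from the median of Spo06441, so the relation rested on those. In root they had r = 0.566 (n = 6, exact p = 0.226) and rho = 0.314 (exact p = 0.564), and r became -0.845 without the 2 farthest libraries. Spo06441 and Spo25084 had r = -0.324 in leaf and -0.230 in root (exact p of 0.549 and 0.667), with rho = -0.143 and -0.0857. These correlations rest on 6 to 29 fragments of Spo06441 in a library.

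**Figure D5:**
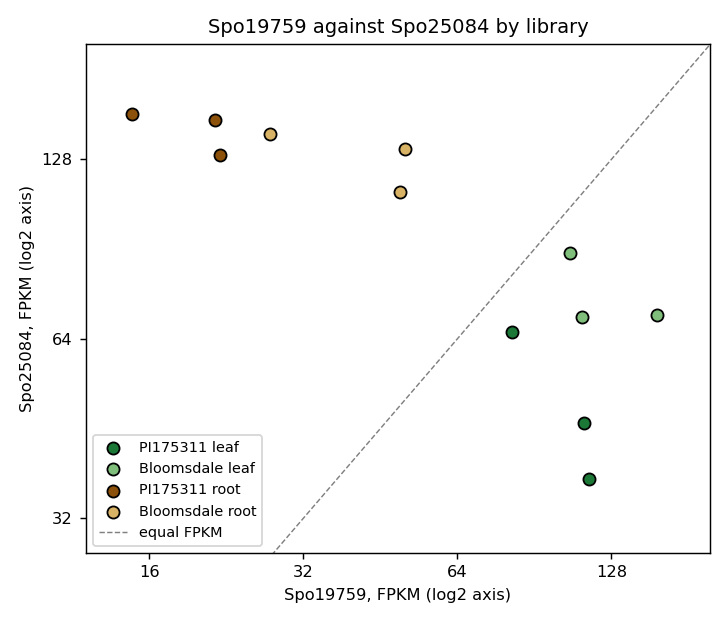
FPKM of Spo19759 against FPKM of Spo25084 in the 12 libraries (both axes logarithmic, base 2), with a dashed line where both are equal. All 6 leaf libraries lie on the Spo19759 side of the line and all 6 root libraries on the Spo25084 side, and the Bloomsdale roots extend toward higher Spo19759, up to 50.5 FPKM.

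Other genes followed the pattern of Spo19759 and Spo25084 over the 12 libraries closely. Likeness was measured as Pearson's r of log2(FPKM + 0.1) among genes that reached 1 FPKM in 6 or more libraries, as a description in which the difference between leaf and root carries much of r. Spo01125 was most like Spo19759, with r = 0.986 over 12 libraries, 0.676 within leaf and 0.976 within root, followed by Spo01837 with 0.985, 0.863 and 0.948. Spo01125 averaged 17.0 and 14.2 FPKM in PI175311 and Bloomsdale leaves and 0.940 and 3.27 FPKM in their roots. Its lower level in the PI175311 roots is favoured by its choice for likeness over the same libraries and is no separate evidence. In all, 583 of the 17776 genes compared had an r over 0.9 with Spo19759.

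Spo15932 was most like Spo25084, with r = 0.987 over 12 libraries, 0.993 within leaf and 0.699 within root. Spo09431 came next, with 0.983, 0.975 and 0.519. It averaged 47.1 and 94.0 FPKM in the PI175311 and Bloomsdale leaves and 349 and 362 FPKM in the roots. Of the 17776 genes compared, 800 had an r over 0.9 with Spo25084. For Spo06441, 8 of 17777 genes had an r over 0.9, led by Spo01920 (0.924) and Spo19642 (0.912). Its r rests on 6 to 29 fragments in a library, so this count is not comparable with those of the abundant genes.

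A list of 12 other oxalate-related genes with a known ID and function was set beside the OXDC-like genes. Most of the list had been picked in the study on these samples, so the counts are no independent evidence. In leaf 5 of the 8 tested were called higher in PI175311 and 0 lower, where 4.04% of all tested genes were called higher and 6.08% lower, with a median log2 difference of 1.80 against -0.12 over all genes. They were Spo08328, an ascorbate peroxidase, Spo12052 and Spo12053, ascorbate oxidases, Spo12360, an alanine-glyoxylate aminotransferase, and Spo21149, a multifunctional protein (MFP2) of fatty acid oxidation. Spo12360 passed the filter only through the PI175311 leaves, at 1.84 to 2.31 FPKM. The Bloomsdale leaves had 0.145 to 0.774 FPKM from 7 to 33 fragments, so the call of Spo12360 is no support. Leaving out PI175311 leaf 1 or 3, or Bloomsdale leaf 1 or 3, left 3 of the 5 calls in number.

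In root 1 of the 9 tested, Spo08328, was called higher in PI175311 and 0 lower, where 2.93% of all tested genes were called higher and 9.70% lower, with a median of -0.03 against -0.23 over all genes. That call was lost with no filter on low values, without PI175311 root 1 or 2, and without Bloomsdale root 1 or 2. Between leaf and root, 3 of the 12 were called higher in leaf and 2 lower in PI175311 (median -0.03 against -0.64), and 1 higher and 4 lower in Bloomsdale (median -0.09 against -0.70). Of all tested genes, 15.9% were called higher in leaf and 47.5% lower in PI175311, and 14.6% higher and 50.0% lower in Bloomsdale. With median-of-ratios scaling 5 were called higher in leaf in PI175311 and 2 lower in Bloomsdale, where 23.3% and 25.5% of all tested genes were. The interaction was called for 1 of the 12, Spo13898, isocitrate lyase, a glyoxylate cycle enzyme, with a median of 0.88 against 0.08, where 1.49% of all tested genes were called above 0 and 0.767% below. Spo13898 passed the filter only through the roots. Its leaves reached at most 0.940 FPKM in PI175311 and 0.0197 in Bloomsdale, with 0 to 1 fragments in each Bloomsdale leaf. The size of its interaction therefore depends on the 0.1 FPKM added. None of the list was called above 0 with 1 FPKM added, with the replicate block or with limma-voom on the fragments under the same filter, and 0 to 3 were when 1 library was left out.

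AAE3 (Spo04424), the enzyme that opens the CoA-dependent breakdown of oxalate, is the list's other gene of oxalate degradation with an ID. Its level was 105, 77.0 and 121 FPKM in PI175311 leaves and 63.6, 78.0 and 37.9 in Bloomsdale leaves. In roots it was 127, 121 and 79.3 FPKM in PI175311 and 71.8, 65.9 and 61.4 in Bloomsdale. AAE3 was thus expressed at levels like those of the abundant OXDC-like genes. All its PI175311 roots were above the Bloomsdale roots, a separation that 41.1% of tested genes also had in one direction or the other.

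The genotype difference of AAE3 was 0.79 in leaf (SE 0.31, limma adjusted p = 0.141) and 0.69 in root (SE 0.22, limma adjusted p = 0.0823), neither past the threshold. The root difference passed with median-of-ratios scaling, at 0.92 (limma adjusted p = 0.0442), and without PI175311 root 3, at 0.90 (limma adjusted p = 0.0285).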

How the data were processed

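The deposited values were FPKM by gene and library, as made by the authors. The paper names TopHat, Bowtie and HTSeq for alignment and counting, while fastp, HISAT2 (2.1.0), featureCounts and DESeq2 stand in the notes of the submitters, and the genome build is not given in the sources used here. Fragments were recovered from the FPKM values of all 21554 genes above 0 in at least 6 libraries, at a tolerance of 1e-04 fragments plus 2e-08 of their number, against 0 of 1000 genes tried with altered totals. The recovered totals are fragments assigned to genes.

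Tests used limma 3.58.1 in R 4.3.3 with trend and robust options on log2(FPKM + 0.1), for genes reaching 1 FPKM in 3 or more of the libraries fitted, with a threshold of 0.05 on the adjusted p. The fit was tested on simulated data. The rest was computed in Python 3.11.15 (pandas 2.3.3, scipy 1.17.1, numpy 2.4.6, matplotlib 3.10.9). The 3 genes and the lists were chosen with earlier results of these data known. The genes named besides them are the list of 12 and the 2 genes most like each. Alternatives were 1 FPKM added, no filter, median-of-ratios scaling, other sets of libraries in the fit, a replicate block, limma-voom on fragments and leaving out each replicate. limma-voom without the filter, and the alternatives for AAE3 and the list of 12, were added after seeing the data.

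Same-numbered PI175311 and Bloomsdale roots deviated together from their group means, with correlations of 0.247, 0.216 and 0.273. This is only a hint of pairing from the same data, since the labels state no shared day or place and differently numbered libraries were not compared. The main root test was therefore unpaired, and pairing entered only with the replicate block. The leaves, with 0.0559, -0.203 and -0.198, were not taken as paired. Leaf and root were not taken as paired either. Their correlations were 0.0424, -0.182 and -0.183 in PI175311 and -0.146, 0.264 and 0.318 in Bloomsdale. Those of Bloomsdale replicates 2 and 3 were of the size seen between the roots, so this choice is not clear-cut. No library was a copy of another, as the spread between replicates was at least 32.1 times counting noise. None of the IDs matched the reference table of 39719 genes, so sequences and positions were not analysed here.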

Additional observations from a re-analysis of the deposited data

How the results depend on the processing

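The tissue differences of Spo19759 in both genotypes and of Spo25084 in PI175311 kept their direction and passed the threshold under every alternative run. That of Spo25084 in Bloomsdale did so except with median-of-ratios scaling (-0.11). The root genotype difference of Spo19759 was below 0 throughout and passed with the replicate block and with all 12 libraries in 1 fit (-1.09 in both), and leaving out 1 library gave -1.38 (without Bloomsdale root 3) to -0.91 (without PI175311 root 3). The block changed no other call of Spo19759 or Spo25084. Spo06441, at 6 to 29 fragments, moved most: its Bloomsdale leaf-root difference was -0.44 with 1 FPKM added, -0.75 with median-of-ratios scaling, -1.26 and called without the filter, and -1.55 and called with limma-voom without the filter. Its interaction was 0.26 with 1 FPKM added and 0.45 to 1.27 leaving out 1 library, the highest without PI175311 root 1. Uncalled correlations changed sign. Leaving out 1 library gave -0.725 to 0.0373 for Spo06441 with Spo25084 in leaf, -0.371 to 0.0764 for Spo19759 with Spo25084 in leaf, and -0.488 to 0.236 for Spo06441 with Spo25084 in root, where deviations from genotype means gave 0.152. The cause was not tested. Counts of all genes called moved as well. In leaf, 1698 became 643 (without Bloomsdale leaf 1) to 1950 (without PI175311 leaf 2). In root, 2299 became 1443 with median-of-ratios scaling and 139 (without Bloomsdale root 2) to 2179 (without PI175311 root 2). For the interaction, 442 became 942 with 1 FPKM added, 130 with the replicate block, 160 with limma-voom, 243 with limma-voom without the filter, and 74 (without Bloomsdale root 2) to 800 (without Bloomsdale leaf 2). Of the list of 12, 3 to 6 were called higher in PI175311 leaves and 0 to 2 in its roots across the alternatives.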
